A study of Mus musculus with 17 samples.

Results

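The comparison described here sets Trem2 wild-type against Trem2 knockout microglia, both taken from brains of mice that carry the 5xFAD transgenes. It rests on 3 wild-type libraries (S22, S23 and S24, the sample numbers in the column names of the deposited table) and 3 knockout libraries (S25, S26 and S27), which are 6 of the 17 libraries of the series. The genes described are those with a normalized read count of 10 or more in at least 3 of these 6 libraries. This rule kept 11500 of the 13501 genes in the table, and 10436 genes reached 10 in all 6 libraries. Just inside the rule, Spock1, Spib and Ppp2r2c had 10.28 as the third highest value, and just outside it Sytl1, Syt12 and Zfand4 had 9.85. Of the 2001 genes that did not pass, 71 were listed at 0 in all 6 libraries.

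The 5xFAD transgenes express mutant human amyloid precursor protein and presenilin under a neuronal promoter and lead to amyloid plaques in the brain. Wild-type mice here were labelled Trem2-wildtype with 5XFAD and knockout mice Trem2-knockout with 5XFAD, and neither group was treated. The cells were living CD45+CD11b+ cells sorted from brain, a gate that takes microglia but also admits other myeloid cells. The labels used here do not state the age and sex of the mice, the knockout allele or the number of mice per library. Other libraries of the series come from normal microglia without 5xFAD (3 libraries), used here for reference levels. Transplanted circulation-derived myeloid cells from Trem2 wild-type or Trem2 knockout donors (4 libraries each), in Trem2 knockout 5XFAD mice given bone marrow and PLX5622, a CSF1R inhibitor, are used for 1 test of difference.

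Trem2 is a surface receptor of microglia and other myeloid cells that binds lipids, lipoproteins and amyloid. It signals through the adaptors Tyrobp (DAP12) and Hcst (DAP10) to the kinase Syk and to phosphoinositide 3-kinase. Around amyloid plaques, microglia turn on a set of genes for lipid handling, lysosomal function and phagocytosis, called the disease-associated microglia (DAM) programme. Its first stage is described as independent of Trem2 and its second stage as dependent on Trem2.

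The 6 libraries held 16163565 to 28897267 reads, as recovered from the deposited values. The knockout libraries were not alike. The median over genes of the standard deviation of log2 values was 0.360 among the knockout libraries, against 0.141 in wild type and 0.184 in normal microglia. S25 and S27 lay close together (chi-square per degree of freedom 9.87), while S26 stood apart from both (136 in each pair). S22 and S23 were also closer to each other (6.19) than to S24 (15.6 and 19.4). Whether such close pairs came from separate animals is not stated, so that p-values measure only the spread between libraries. With all libraries, this spread is pooled over the whole series, normal microglia and transplanted cells included. The median standard deviation was 0.245 in transplanted wild-type cells and 0.277 in transplanted knockout cells. It was largest in the knockout microglia, so that the pooled spread can understate theirs. Mitochondrial genes took 0.257% and 0.246% of reads in S25 and S27, 0.0708% in S26 and 0.12% to 0.141% in wild type. Counts for the gene lists, higher first and lower second, are therefore also given without S26, and without S25 and S27. The fit without S25 and S27 leaves 1 knockout library, which is assumed to vary like the other groups. In these bulk libraries, fewer cells of a type and less RNA per cell cannot be told apart.

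Trem2 itself (chromosome 17, 48346401 to 48354147, GRCm38) had normalized read counts of 51400, 53077 and 49346 in wild type and 5516, 4367 and 5965 in knockout. Every knockout library lay far below every wild-type library. The log2 difference, wild type minus knockout here and throughout, was 3.29 (limma SE 0.161, adjusted p = 5.89e-10). The knockout level was 0.10 of the wild-type level, and normal microglia had 33683 ± 3323 (SD, n = 3). The table holds 1 value per gene, so that the remaining reads could not be placed along the transcript. The adaptor gene Tyrobp had 61627, 59645 and 63063 in wild type and 49836, 36587 and 55866 in knockout. Its groups did not overlap, with S26 lowest, but its difference of 0.40 did not pass the test (adjusted p = 0.245). Of 31 tested genes for the Trem2 receptor, its adaptors and signalling proteins, 1 was called higher in wild type, Trem2 itself, and 2 lower. Over all tested genes 2.78% were called higher and 2.57% lower. The lower genes were Vav3, an exchange factor for small GTPases (−1.45, adjusted p = 0.0181), and Dok3, an inhibitory adaptor (−0.61, adjusted p = 0.0265). Vav3 lost its call without S22, S23, S24 or S25 (adjusted p up to 0.0819), and Dok3 without S22, S24 or S27 (up to 0.122). Without S26, 13 signalling genes were called higher and 2 lower, beside 18% and 13.8% of all tested genes in that fit. Without S25 and S27 the counts were 1 and 1, beside 1.24% and 0.783%.

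The neighbours of Trem2 on chromosome 17 belong partly to the same receptor family. Of 46 tested genes within 2000000 bases on either side of Trem2, with Trem2 counted, 7 were called, against 5.35% of all tested genes. The 7 include Trem2, whose call the knockout itself brings about, so that this count does not describe its neighbours alone. Besides Trem2, 1 of them was called higher in wild type and is not described further, and the called genes named next were lower. Trem1, an activating receptor of neutrophils and monocytes, had 28.5, 14.3 and 25.4 in wild type and 342, 231 and 239.6 in knockout, a difference of −3.55 (adjusted p = 6.75e-05). Trem3 differed by −3.63 (adjusted p = 0.000595). The uncharacterised neighbour 9830107B12Rik had 0, 0.75 and 7.16 in wild type and 86.4, 35 and 86.7 in knockout, and it differed by −4.75. Trem3 and 9830107B12Rik lost their calls without S25 and S27 (adjusted p = 0.118 and 0.123). Trem1, Trem3 and this gene were all higher in every knockout library. Treml4 differed by −1.72 and A530064D06Rik by −1.85. Treml4 lost its call without any 1 library except S26 (adjusted p up to 0.134), and A530064D06Rik lost it without S22, S24, S25 or S27 (up to 0.0944). Treml2 (0.20, adjusted p = 0.673) and Treml1 (−0.90, adjusted p = 0.494) did not pass. On chromosome 17 as a whole, 42 of 579 tested genes were called (7.25%). These genes were chosen for their position after values had been seen. Neutrophil and monocyte markers, given below, were higher in the same knockout libraries, and their part in these differences was not tested.

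Over all genes, 320 were called higher in wild type (2.78% of those tested) and 295 lower (2.57%). The differences were of unlike size. Among the higher genes 118 differed at least 2-fold and 37 at least 4-fold, with a median log2 difference of 0.83. Among the lower genes 235 differed at least 2-fold and 144 at least 4-fold, with a median of −1.96. Wild-type and knockout libraries were fully separated for 22.6% of all tested genes, and for 318 of the 320 higher and 291 of the 295 lower genes. A fit of the 6 libraries alone called 273 genes (2.37%), including 101 of the higher and 145 of the lower ones. Leaving out S26 raised the count to 2071 higher and 1592 lower (18% and 13.8% of tested genes). Leaving out S25 and S27 lowered it to 143 and 90 (1.24% and 0.783%), of which 79 and 81 were called in the same direction with all libraries. Called in all 4 fits were 55 genes higher in wild type (0.478%) and 68 lower (0.591%). These 4 fits, with all 17 libraries, with the 6 alone, without S26, and without S25 and S27, are the ones meant below by all 4 fits. List counts without S26 stand against 18% higher and 13.8% lower over all genes, and those without S25 and S27 against 1.24% and 0.783%. Of the 127 called genes named in the text, 36 did not pass with the 6 libraries alone and 54 did not pass without S25 and S27. In the text below, a called gene that lost its call when 1 library was left out is given with that library.

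**Figure D1:**
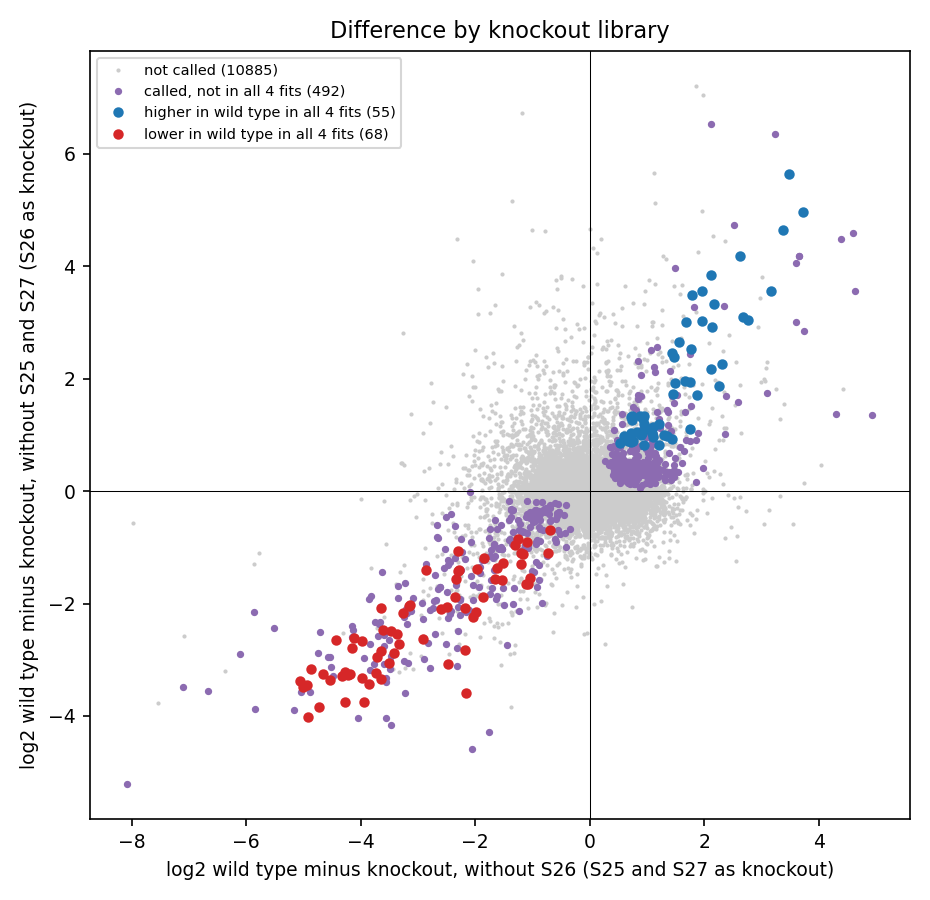
Log2 difference, wild type minus knockout, of each tested gene without S26 (horizontal axis) and without S25 and S27 (vertical axis). Blue points are the 55 genes higher and red points the 68 lower in wild type in all 4 fits, purple points the other called genes and grey points the genes not called. Both axes share the wild-type libraries.

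Among the genes higher in wild type were receptors, lipid enzymes and secreted factors of the DAM programme. Ank, an exporter of pyrophosphate and ATP, had 9526, 9553 and 10630 in wild type and 1481, 1205 and 1424 in knockout. The knockout libraries lay close together, at 12.2% (S26) and 14.7% (S25 and S27) of the wild-type mean, for a difference of 2.86 (SE 0.124, adjusted p = 1.68e-10). Itgax, which encodes the integrin CD11c, had 4027, 4214 and 4158 in wild type and 638, 484 and 647 in knockout. S26 was again the lowest library by a small margin, and the difference was 2.82 (adjusted p = 2.44e-06). Axl, a receptor tyrosine kinase that binds apoptotic cells through Gas6, had 14171, 14160 and 14292 in wild type and 3284, 3151 and 3298 in knockout. These 6 values showed hardly any spread within a genotype, and the knockout mean of 3244 ± 81.2 (SD, n = 3) was near that of normal microglia (3413 ± 179.5). The difference in Axl was 2.13 with all libraries, 2.11 without S26 and 2.17 without S25 and S27. Csf1, the growth factor of microglia, had 5639, 5646 and 6502 in wild type and 1361, 778 and 1334 in knockout, a difference of 2.40 (adjusted p = 0.000174). It too was lowest in S26, and no knockout library came near the wild-type range.

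For 4 of these genes the 250 bases before the transcription start are printed from RefSeq (GRCm38.p6), 5′ to 3′ on the gene's own strand. They are shown as examples of genes that differed in every knockout library, and capitals mark a match to 1 of 4 searched motifs.
Ank (chr15:27466427-27466676, plus strand): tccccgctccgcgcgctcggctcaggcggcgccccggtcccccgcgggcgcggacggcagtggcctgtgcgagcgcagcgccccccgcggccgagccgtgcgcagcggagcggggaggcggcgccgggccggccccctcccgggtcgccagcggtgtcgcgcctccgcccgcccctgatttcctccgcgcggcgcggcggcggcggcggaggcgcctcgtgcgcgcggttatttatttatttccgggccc
Itgax (chr7:128129300-128129549, plus strand): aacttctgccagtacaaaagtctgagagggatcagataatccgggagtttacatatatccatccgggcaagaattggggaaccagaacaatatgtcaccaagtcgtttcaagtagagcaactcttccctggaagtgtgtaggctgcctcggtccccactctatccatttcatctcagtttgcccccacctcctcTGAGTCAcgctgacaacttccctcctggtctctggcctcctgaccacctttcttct
Axl (chr7:25788734-25788983, minus strand): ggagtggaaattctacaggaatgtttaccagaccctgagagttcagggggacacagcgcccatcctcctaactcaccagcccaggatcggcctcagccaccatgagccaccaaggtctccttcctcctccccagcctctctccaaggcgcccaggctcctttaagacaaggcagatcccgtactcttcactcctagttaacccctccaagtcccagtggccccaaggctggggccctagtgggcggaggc
Csf1 (chr3:107760470-107760719, minus strand): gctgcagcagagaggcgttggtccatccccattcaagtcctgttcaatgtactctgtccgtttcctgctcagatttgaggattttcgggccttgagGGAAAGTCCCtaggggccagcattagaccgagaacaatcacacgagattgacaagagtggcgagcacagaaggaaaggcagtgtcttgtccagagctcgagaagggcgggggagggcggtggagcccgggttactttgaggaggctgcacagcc
The searched motifs, on both strands, were the E-box CACGTG, the AP-1 motif TGANTCA, the NF-kB consensus motif and the PU.1 motif AGAGGAAGT. Itgax held an AP-1 match 56 bases before the start, and Csf1 an NF-kB match 154 bases before it. No match to these letters was found in the windows of Ank and Axl. The windows of Cst7, Sulf2 and Gusb, genes that also differed in every knockout library, were searched but are not printed. They held no match either. Of all 27025 genes with a RefSeq promoter, 7.82% held the AP-1 motif, against 5.34% of the 9248 tested genes that had one. Among the genes called higher in all 4 fits, 7 of 47 with a promoter held it (14.9%), as did 7.39% of all genes called higher and 9.24% of those called lower. The NF-kB motif was held by 0.414% of all promoters and by 2 of these 47. A match is a description of the letters and not a binding site.

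**Figure D2:**
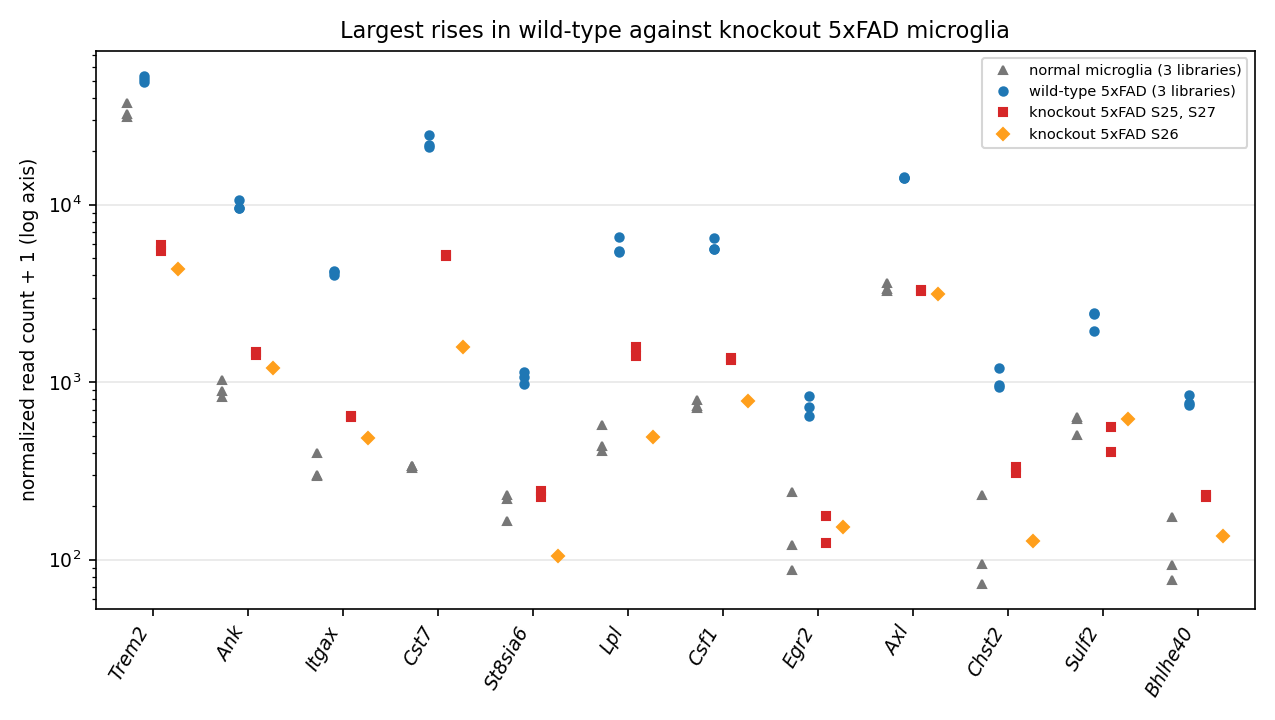
Normalized read counts plus 1 (log axis) in each library of normal, wild-type 5xFAD and knockout 5xFAD microglia, for the 12 called genes with the largest rise in wild type whose mean lies above the median gene. Genes were picked among those whose wild-type and knockout libraries did not overlap, so every wild-type point lies above every knockout point by that choice. S26 lies lowest for Cst7 (1576) and Lpl (493), while the knockout points of Axl nearly coincide.

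Other genes of this group had knockout libraries that differed more among themselves. Cst7, an inhibitor of lysosomal cysteine proteases, had 21691, 21157 and 24879 in wild type and 5177, 1576 and 5148 in knockout. S26 held less than the other knockout libraries, and the difference of 2.70 was 2.12 without S26 and 3.84 without S25 and S27. Lpl, which releases fatty acids from lipoproteins, had 5517, 5384 and 6613 in wild type and 1572, 493 and 1404 in knockout and differed by 2.5 (adjusted p = 0.000617). Ch25h, which makes 25-hydroxycholesterol, had 542, 636 and 740.3 in wild type and 154, 55.8 and 220.0 in knockout and differed by 2.35 (adjusted p = 0.000962). In these genes the 3 knockout libraries lay below wild type but S26 was the lowest of them. Of 2 genes outside the list, St8sia6, a sialyltransferase, differed by 2.56 and Chst2, a carbohydrate sulfotransferase, by 2.13. Chst2 lost its call without S24 (adjusted p = 0.0537). Sulf2, which removes sulfate groups from heparan sulfate, had 1950.5, 2456 and 2414 in wild type and 405, 616 and 556 in knockout, and here S26 was the highest knockout library. Its difference was 2.12 (adjusted p = 6.49e-06).

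Some genes called in all 4 fits belonged to none of the lists, and those named here were picked after their values were seen. Dcstamp, needed for the fusion of osteoclasts, had 170, 132 and 174 in wild type and 22.6, 2.19 and 7.59 in knockout, a difference of 4.19 (adjusted p = 0.00241). Il4i1, a secreted amino acid oxidase, had 1871, 1697 and 2072 in wild type and 513, 488 and 598 in knockout and differed by 1.82. St14, a membrane serine protease known as matriptase, had 2536, 2853 and 3180.2 in wild type and 754, 873 and 806 in knockout and differed by 1.81. The knockout libraries of Il4i1 and St14 were near the normal microglia means of 414 and 826. Fam20c, the kinase of secreted proteins, differed by 1.78 and the motor protein gene Myo1e by 1.63. Lgals3bp differed by 1.05.

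The DAM stage 2 list held 38 genes, of which 36 were tested, Gm1673 was not used here and 1 did not reach the value rule. With all libraries 15 of the 36 were called higher in wild type and 0 lower, against a background of 2.78% and 2.57%. At an unadjusted p under 0.05 the limma counts were 27 and 1, and edgeR called 16 and 0. Their median log2 difference was 1.14, against 0.01 over all tested genes. The direction of this list in these libraries was known when it was chosen, and it is not independent evidence. Without S26 the median was 0.66 with 14 higher and 1 lower, and without S25 and S27 it was 2.23 with 22 higher and 0 lower. Of the 15 called genes, 11 kept their call without any 1 library. The rest were Timp2, Ctsa, Capg and Mamdc2. Mamdc2 lost it without each of the 6 (adjusted p up to 0.138). Capg, which caps actin filaments, lost it without S22, S23 or S24 (up to 0.096). Timp2, an inhibitor of metalloproteases, lost it without any 1 library except S26 (up to 0.094). Ctsa, a lysosomal carboxypeptidase, did so in the same 5 cases (up to 0.113).

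The list was divided by which knockout libraries were low. Against both S26 and the pair S25 and S27, 12 genes were called higher in wild type, which were Ank, Itgax, Axl, Cst7, Lpl, Csf1, Ch25h, Sulf2, Egln3, Aplp2, Capg and Ccl6. Another 10 were called against S26 only, 2 against S25 and S27 only (Timp2 and Ctsa), and 12 in neither. Clec7a (dectin-1), a receptor for fungal glucans and a common marker of plaque-associated microglia, had 6345, 5268 and 8251 in wild type and 5449.7, 757 and 5497 in knockout. S25 and S27 were within the wild-type range, while S26 was at 11.4% of the wild-type mean, close to normal microglia at 12.1%. Igf1, a growth factor, had 1000.3, 996 and 1298 in wild type and 1017, 137 and 998 in knockout, which puts S25 and S27 at 91.8% of the wild-type mean and S26 at 12.5%. Gpnmb, a glycoprotein of late endosomes, had 1668, 1771 and 2507 in wild type and 802, 54.7 and 979.9 in knockout. For Gpnmb S25 and S27 lay between S26 and wild type, at 45% of the wild-type mean. Fabp5, a fatty acid carrier, had 951, 1082 and 1184 in wild type and 795, 134 and 780.5 in knockout, and the tetraspanin gene Cd63 had 20272, 20072 and 21458 in wild type and 21800, 9824 and 23906 in knockout. With all libraries none of these passed the limma test (Clec7a 1.20, adjusted p = 0.165; Igf1 1.07, 0.241; Gpnmb 2.47, 0.117). Against S26 alone the difference was 3.10 for Clec7a (adjusted p = 1.64e-05), 2.98 for Igf1 (0.000437) and 5.13 for Gpnmb (0.00375). Against S25 and S27 it was 0.25 for Clec7a (0.402), 0.11 for Igf1 (0.803) and 1.14 for Gpnmb (0.211). These genes were chosen for this division after their values were seen.

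Spp1 and Lgals3, well-known members of the programme, were among the stage 2 genes called higher in neither comparison. Spp1, the secreted protein osteopontin, had 4049.5, 3794 and 5688 in wild type and 1753, 244 and 1928 in knockout. The knockout libraries lay below wild type and far apart, and the difference did not pass (2.24, adjusted p = 0.219). Apoe, the lipid carrier and a DAM stage 1 gene, had 217210, 234870 and 220780 in wild type and 203070, 119270 and 211980 in knockout. S25 and S27 were near the lowest wild-type library and S26 near the normal microglia mean of 102460, and the difference of 0.38 did not pass (adjusted p = 0.288). Lgals3 (galectin-3) went the other way, with 1106, 1199 and 1485 in wild type and 3796, 1306 and 3733 in knockout. S25 and S27 held 298% of its wild-type mean and S26 103%, and the difference of −1.08 did not pass (adjusted p = 0.109), though it did without S26 (−1.59, adjusted p = 0.00217). Lgals3 is also made by monocytes and macrophages. The mean log2 value of monocyte markers was higher in S25 and S27 (9.61 in each) than in S26 (8.92). That of border-associated macrophage markers was higher in S26 (9.37) than in S25 (9.03) and S27 (8.97). The part of these cells in the level of Lgals3 was not tested. Summed over the list, DAM stage 2 genes took 1.93% to 2.12% of reads in wild type, 1.08% to 1.61% in knockout and 0.957% to 1.04% in normal microglia.

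**Figure D3:**
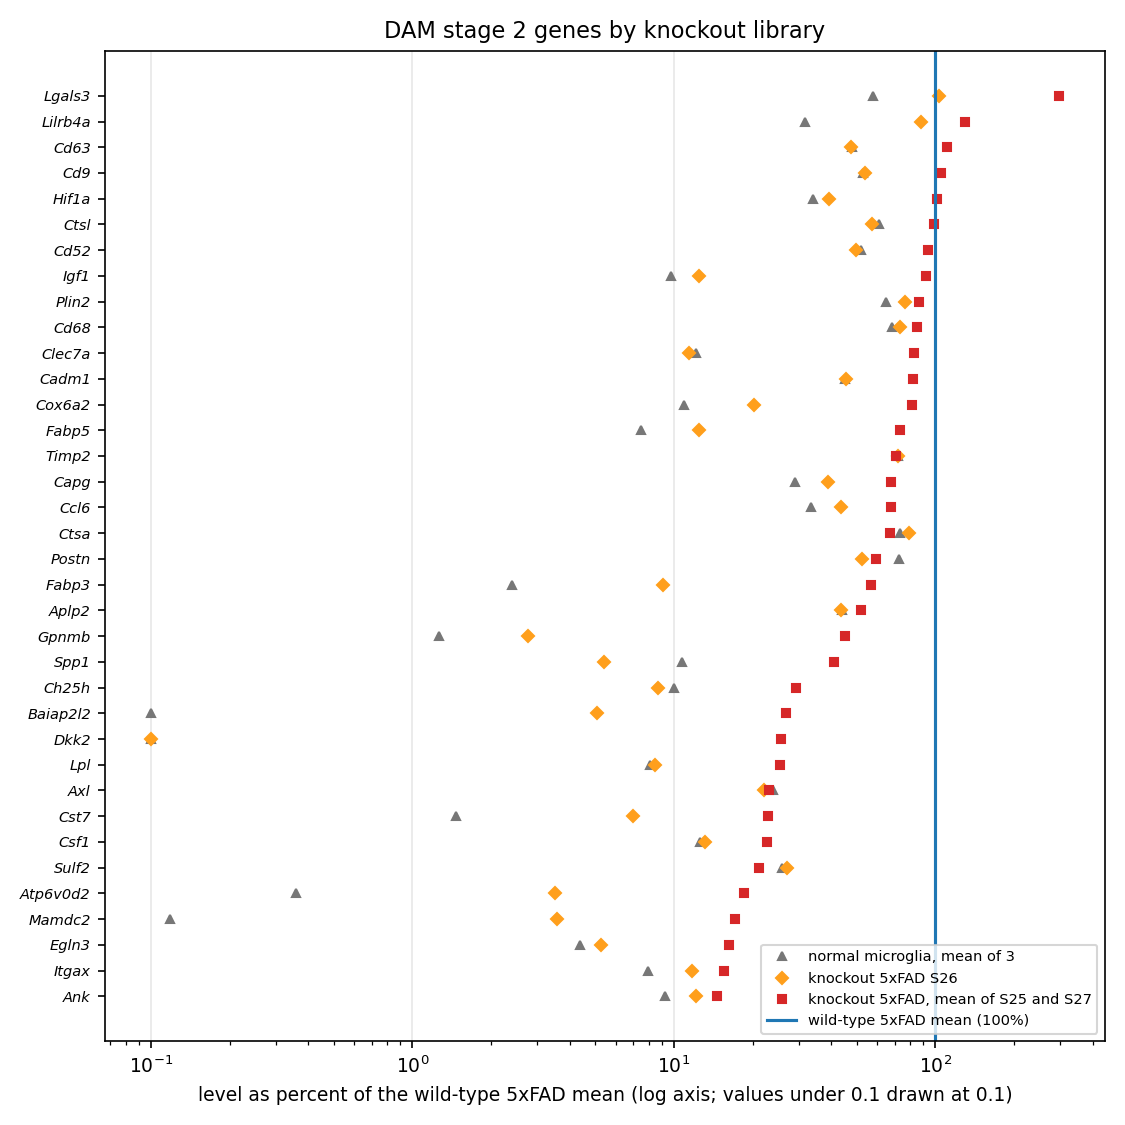
Level of the 36 DAM stage 2 genes as a percentage of the wild-type 5xFAD mean (log axis) in normal microglia (mean of 3 libraries), in S26 and in S25 and S27 (mean). Ank and Axl lie at like percentages in S26 and in S25 and S27, while Clec7a lies at 11.4% in S26 and 82.7% in S25 and S27.

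In the DAM stage 1 list, 3 of 10 tested genes were higher in wild type and 0 lower, with a median of 0.39 (0.17 without S26, 0.75 without S25 and S27). The counts were 3 and 1 without S26, 3 and 0 without S25 and S27. Ctsd, the lysosomal aspartic protease cathepsin D, had 653670, 631310 and 675160 in wild type and 361890, 385650 and 383220 in knockout, a difference of 0.79 (adjusted p = 0.00582). All knockout libraries, S26 included, lay below wild type and near the normal microglia mean of 364720, but the call was lost without S25 and S27 (adjusted p = 0.144). Ctsz, a lysosomal carboxypeptidase, differed by 0.58 and lost its call without S22 or S24 (adjusted p up to 0.0675). Timp2 differed by 0.49 (adjusted p = 0.024). Ctsb (0.52, adjusted p = 0.0643) did not pass.

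Homeostatic microglia genes gave no common direction. Of 32 tested, 0 were higher and 2 lower in wild type by limma (3 and 4 at an unadjusted p under 0.05, 0 and 2 by edgeR), with a median of −0.00. The counts were 6 and 4 without S26, 0 and 1 without S25 and S27. Ltc4s, leukotriene C4 synthase, differed by −0.54 (adjusted p = 0.0182) and lost its call without S22, S24 or S27 (up to 0.0953). Ecscr differed by −0.69 (adjusted p = 0.0488) and lost it without any 1 library except S26 (up to 0.143). For several genes S26 and the other knockout libraries lay on opposite sides of wild type. Tmem119, a membrane protein typical of microglia, had 98924, 101080 and 93678 in wild type and 75270, 150620 and 79525 in knockout. S26 was near the normal mean of 160090, while S25 and S27 lay below wild type. Csf1r, the receptor of Csf1, had 315720, 308890 and 281810 in wild type and 153810, 339020 and 156170 in knockout and Sall1, a transcription factor of microglial identity, had 6103, 6317 and 5764 in wild type and 3644, 9289 and 3419.9 in knockout. In both, S26 lay above the wild-type libraries and S25 and S27 below them. Cx3cr1, the fractalkine receptor, had 71920, 75082 and 69347 in wild type and 57683, 74328 and 50804 in knockout. The nucleotide receptor gene P2ry12 had 41038, 37026 and 46385 in wild type and 67152, 45584 and 64608 in knockout, with S25 and S27 above the other libraries (−0.50, adjusted p = 0.165). Siglech (−0.10, adjusted p = 0.665) did not pass either. S26 lay above both S25 and S27 in 25 of the 32 genes and below both in 7. As a check of the cell type, the list took 10.8% to 11.1% of reads in wild type, 10.95% to 12.8% in knockout and 13.4% to 14.1% in normal microglia, with no member at 0.

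Among 29 tested transcription factors of microglial identity and of lipid and lysosomal states, 1 was higher and 1 lower. Bhlhe40, a repressor linked to lipid and lysosomal gene control, had 763, 738 and 840.0 in wild type and 230.3, 135 and 225 in knockout and differed by 2.02 (adjusted p = 0.00116). Its knockout libraries were all well below wild type, with S26 lowest. Pparg, a nuclear receptor of lipid metabolism, had 19.6, 4.52 and 13 in wild type and 66.8, 54.7 and 61.8 in knockout, higher in every knockout library (−2.40, adjusted p = 0.00132). It did not pass without S25 and S27 (adjusted p = 0.0722) or with 6 libraries (0.0786). Cebpb (0.77, adjusted p = 0.0804) and Srebf1 (0.66, adjusted p = 0.0824) did not pass. The counts were 11 and 2 without S26, 2 and 0 without S25 and S27, against 18% and 13.8% of all genes in the former fit and 1.24% and 0.783% in the latter.

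Of 48 lysosomal enzymes and membrane proteins 13 were higher in wild type and 0 lower, with a median of 0.32 (0.37 without S26, 0.34 without S25 and S27). By edgeR the counts were the same, 13 and 0, and by limma they were 23 and 0 without S26, 7 and 1 without S25 and S27. The list shares Ctsd, Ctsz and Ctsa with the DAM lists. Gusb, beta-glucuronidase, had 17117, 16737 and 16876 in wild type and 10322, 9117 and 9782 in knockout. The knockout libraries were near the normal mean of 9816, and the difference was 0.80 (SE 0.102, adjusted p = 8.38e-05). Glb1, beta-galactosidase, had 4609, 4515 and 4649 in wild type and 2748, 2503 and 2849.7 in knockout and differed by 0.77 (adjusted p = 0.000325). Tpp1, a tripeptidyl peptidase, had 10923, 11201 and 11445 in wild type and 7539, 7819 and 7657 in knockout and differed by 0.54 (adjusted p = 0.00501), but not without S25 and S27 (adjusted p = 0.114). Hexa, the alpha subunit of hexosaminidase, differed by 0.61 (without S25 and S27, adjusted p = 0.071). All differences in this list were below 2-fold, and 23 of the 48 genes had wild-type libraries wholly above the knockout libraries, against 11.7% of all tested genes. Related genes called in all 4 fits were Gnptab, an enzyme of the mannose-6-phosphate tag that sends hydrolases to lysosomes (0.95), and Pld3, a lysosomal nuclease with 16210, 15838 and 16412 in wild type and 8648, 9156 and 8062 in knockout (0.91). The E-box CACGTG, the core of the sites bound by the TFEB family, was found before the start of 13 of 40 list genes with a RefSeq promoter (32.5%). It was found in 9.93% of tested genes, 10.1% of those called higher and 4.2% of those called lower.

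Lipid genes moved in part. In cholesterol synthesis and uptake 4 of 26 were higher and 0 lower, with a median of 0.36 (0.38 without S26, 0.32 without S25 and S27) and counts of 6 and 0 without S26, 2 and 0 without S25 and S27. Dhcr7, the last enzyme of the pathway, had 1607, 1445 and 1489.8 in wild type and 771, 972 and 632 in knockout and differed by 0.96 (adjusted p = 0.00351), though not without S25 and S27 (adjusted p = 0.226). The squalene synthase gene Fdft1 had 1677, 1649 and 1526 in wild type and 1137, 1326 and 1154 in knockout and differed by 0.43. It lost its call without any 1 library except S26 (adjusted p up to 0.13). In lipid efflux, 3 of 19 were higher and 0 lower, Lpl and Ch25h, given above, and Soat1 (6 and 1 without S26, 4 and 0 without S25 and S27). Soat1, which esterifies cholesterol for storage, had 3775, 3786 and 3779 in wild type and 2906, 2202 and 3022 in knockout and differed by 0.49. It lost its call without S22, S23 or S24 (up to 0.0781). Nceh1, which frees cholesterol from those esters, did not pass (0.85, adjusted p = 0.0525).

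Of 30 tested genes for lipid droplets and fatty acids, 2 were higher, 1 was lower and the median was 0.12 (counts of 8 and 2 without S26, 1 and 0 without S25 and S27). Acaca, the first enzyme of fatty acid synthesis, had 417, 378 and 416 in wild type and 153, 152 and 105 in knockout, a difference of 1.57 (adjusted p = 0.00912). It lost its call without S27 (adjusted p = 0.0608). Acly, which supplies acetyl-CoA for that pathway, had 8184, 7627 and 6774 in wild type and 3604, 5980.1 and 3917 in knockout with S26 nearer to wild type, and differed by 0.77. Its call was lost without any 1 library except S26 (up to 0.168). Cd36, a scavenger receptor for lipids, was lower in wild type, with 276, 205 and 287 in wild type and 488, 396 and 558 in knockout (−0.91), and lost its call without S23, S25 or S27 (up to 0.104). Fasn (0.97, adjusted p = 0.12) did not pass.

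In glycolysis and the hypoxia response 7 of 26 genes were higher and 1 lower, with a median of 0.37 (0.28 without S26, 0.55 without S25 and S27). The counts were 8 and 1 without S26, 5 and 0 without S25 and S27. Slc2a1, the glucose transporter GLUT1, had 3489, 3461 and 3978 in wild type and 1388, 1810.2 and 1568 in knockout and differed by 1.20 (adjusted p = 0.000136). Egln3, a prolyl hydroxylase that marks HIF proteins for decay, had 434, 432 and 508 in wild type and 63.7, 24.1 and 84.5 in knockout and differed by 3.14 (adjusted p = 0.000909). Both were separated from knockout in every library. Slc16a3, the lactate exporter MCT4, had 3246, 3391 and 4015 in wild type and 2003, 2047 and 2218 in knockout and differed by 0.76 (adjusted p = 0.00478). Vegfa, an angiogenic factor, had 112, 123 and 177 in wild type and 49.4, 7.66 and 45.5 in knockout and differed by 2.31, but lost its call without S22, S23 or S24 (up to 0.122). Pfkp, a phosphofructokinase isoform, was the exception, with 184, 159.7 and 193 in wild type and 388, 364 and 409.7 in knockout (−1.11, adjusted p = 0.00192). Pfkp and Slc16a3 lost their calls without S25 and S27 (adjusted p = 0.0833 and 0.0757). Hif1a itself had 6177, 5687 and 7622 in wild type and 6942, 2558 and 6273 in knockout, low in S26 only, and did not pass (0.42, adjusted p = 0.354).

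Some targets and inhibitors of NF-kB were higher in wild type. In the cytokine and NF-kB list 7 of 35 were higher and 0 lower, with a median of 0.20 (0.20 without S26, 0.22 without S25 and S27). The counts were 13 and 4 without S26, 5 and 0 without S25 and S27, against 18% and 13.8% of all genes in the former fit and 1.24% and 0.783% in the latter. Tnfaip3 (A20), a deubiquitinase that restrains NF-kB, had 3267, 3204 and 3886 in wild type and 993, 1596 and 1058 in knockout and differed by 1.53 (adjusted p = 0.000174). Nfkbiz, an atypical inhibitor protein, had 2149, 2355 and 2978 in wild type and 975, 745 and 842 in knockout and differed by 1.54. Nfkbia, the classical inhibitor, had 8064, 8302 and 9654 in wild type and 4777, 4179 and 5025 in knockout and differed by 0.90, and the surface protein gene Cd83 had 18283, 18128 and 20515 in wild type and 11031, 7892 and 11656 in knockout and differed by 0.91. Tnfaip3, Nfkbiz, Nfkbia and Cd83 were called in all 4 fits. The cytokine gene Tnf had 1218, 1204 and 1787 in wild type and 437, 255 and 382 in knockout and differed by 1.98, but lost its call without S24 (adjusted p = 0.0643). The chemokine gene Ccl3 had 8104, 7212 and 10036 in wild type and 4004, 1467 and 4003 in knockout and differed by 1.55, and Ccl4 differed by 1.65. Ccl3 lost its call without S22, S23 or S24 (up to 0.122) and Ccl4 without any 1 library except S26 (up to 0.112).

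Immediate early genes, which respond within minutes to many stimuli, numbered 9 higher and 0 lower among 24 tested, with a median of 0.82 (0.97 without S26, 0.37 without S25 and S27). Their counts were 16 and 0 without S26, 2 and 0 without S25 and S27. Only 2 of the 9, Egr2 and Myc, kept their call without any 1 library. Egr2, a zinc finger factor, had 724, 647 and 838 in wild type and 122, 152 and 176 in knockout and differed by 2.30 (adjusted p = 0.000269). Myc had 1146, 1314 and 1259 in wild type and 629, 576 and 681 in knockout and differed by 0.98, but did not pass without S25 and S27 (adjusted p = 0.0543). Maff, a small Maf factor, had 127, 112 and 195 in wild type and 44.2, 16.4 and 28.2 in knockout and differed by 2.32 (without S24, adjusted p = 0.0584). Dusp1, a phosphatase of MAP kinases, had 29915, 29951 and 35399 in wild type and 10147, 22473 and 10476 in knockout. S26 lay between the groups for Dusp1, and its difference of 1.24 lost its call without S24, S25 or S27 (up to 0.0697).

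In the list of growth factors, proteases and matrix enzymes, 9 of 35 were higher and 4 lower. The counts were 12 and 6 without S26, 9 and 3 without S25 and S27. The higher ones included Csf1, Sulf2, Vegfa and Timp2, given above, and the metalloprotease gene Adamts1 (1.78), which lost its call without S24 (adjusted p = 0.0673). The lower ones included 2 neutrophil proteases, Mmp8 (−4.30) and Mmp9 (279, 239 and 287 in wild type and 3349, 2540.2 and 3778 in knockout; −3.57), and Lgals1 (galectin-1), with 273, 294 and 248 in wild type and 1236, 727 and 1448 in knockout (−2.01, adjusted p = 4.62e-05). Of 20 genes for amyloid precursor processing and amyloid degradation, 1 was higher, Aplp2, and 0 lower (3 and 2 without S26, 1 and 0 without S25 and S27). Aplp2, a relative of the amyloid precursor protein, had 8273, 8155 and 8356 in wild type and 4306, 3593 and 4290.3 in knockout and differed by 1.03 (adjusted p = 7.2e-06). Its S26 value was lowest, and it was called in all 4 fits. Ncstn, the gamma-secretase subunit nicastrin (0.59, adjusted p = 0.0811), Ide (−0.54, adjusted p = 0.107) and Clu (−0.60, adjusted p = 0.177) did not pass.

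TGF-beta signalling, which maintains the microglial state, had 3 of 20 genes higher and 0 lower. The counts became 10 and 1 without S26, 0 and 0 without S25 and S27; over all genes 18% were called higher and 13.8% lower without S26. Tgfbr2, the type 2 receptor, had 18714, 18585 and 18021 in wild type and 8833, 15784 and 8409 in knockout and differed by 0.81 (adjusted p = 0.0224). S26 lay nearer to wild type than S25 and S27 did for Tgfbr2, and without S25 and S27 the difference was 0.22 (adjusted p = 0.766). The call of Tgfbr2 was lost without any 1 library except S26 (up to 0.144). Ltbp3 (1.04) lost its call without S22, S23 or S25 (up to 0.176) and Tgif1 (0.41) without any 1 library except S26 (up to 0.146). Acvrl1 (−0.42, adjusted p = 0.0763) did not pass.

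Receptors for apoptotic cells, lipoproteins and debris showed both directions, with 3 of 36 higher and 5 lower (5 and 7 without S26, 3 and 1 without S25 and S27). Axl is given above. Siglecf, a sialic acid receptor known from eosinophils, was also higher. It had 2001, 1805 and 2028 in wild type and 673, 498 and 563 in knockout and differed by 1.76 (adjusted p = 0.000259). It was called in all 4 fits, although Prg2, an eosinophil granule protein, was far lower there. Pilrb1, an activating receptor of myeloid cells, had 10.8, 16.6 and 22.8 in wild type and 116, 62.4 and 178 in knockout and differed by −2.69 (adjusted p = 0.0013). It did not pass without S25 and S27 (adjusted p = 0.16). Among integrins and adhesion genes 2 of 24 were higher and 5 lower (11 and 4 without S26, 1 and 3 without S25 and S27). The leukocyte homing gene Itgb7 had 181, 189.8 and 172 in wild type and 750.5, 809.9 and 686 in knockout (−2.04, adjusted p = 0.00224) and was called in all 4 fits. Itga4 had 29.5, 20.3 and 46.2 in wild type and 106, 103 and 73.7 in knockout (−1.58), and did not pass without S25 and S27 (adjusted p = 0.0577).

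Antigen presentation by MHC class II was lower in wild type in 4 of 14 genes and higher in 2. Counts of higher and lower genes were 3 and 5 without S26, 0 and 3 without S25 and S27. H2-Eb1 had 4257, 4730.4 and 4769 in wild type and 9821, 14412 and 9543 in knockout, a difference of −1.27 (adjusted p = 0.000665). H2-Aa had 5258, 5609 and 5815 in wild type and 12913, 13675 and 12646 in knockout and differed by −1.23 (adjusted p = 0.000722). In both, S26 was the highest knockout library, and the normal means were 13553 and 13983. Both were called in all 4 fits. H2-Ab1 had 11951, 12056 and 13340 in wild type and 23777, 29763 and 23993 in knockout and differed by −1.05, losing its call without S22 or S23 (up to 0.0561) and without S25 and S27 (adjusted p = 0.0632). H2-Ob, part of a modulator of peptide loading, was higher (0.52) and lost its call without S23, S24, S25 or S27 (up to 0.0575). These genes lie on chromosome 17, as Trem2 does. Of 23 class I genes 1 was higher and 0 lower (3 and 2 without S26, 1 and 0 without S25 and S27). It was H2-D1 (57555, 54740 and 62554 in wild type and 39734, 33919 and 40907 in knockout; 0.61), and it lost its call without any 1 library except S26 (up to 0.155). Calr (0.37, adjusted p = 0.0734), H2-T23 (0.38, 0.0993) and H2-Q6 (0.68, 0.114) did not pass. In the complement list 2 of 18 were higher and 2 lower (4 and 2 without S26, 2 and 0 without S25 and S27). Cfp (properdin), which is stored in neutrophils, had 229, 171 and 215 in wild type and 798, 649 and 885 in knockout (−1.92, adjusted p = 0.00207). C3 had 289, 426 and 347 in wild type and 785, 642 and 1104 in knockout (−1.23, adjusted p = 0.00577). Neither passed without S25 and S27 (adjusted p = 0.114 and 0.248). C3ar1 (0.36) lost its call without any 1 library except S26 (up to 0.166).

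Many granule and calcium-binding proteins of neutrophils were lower in wild type. S100a8 had 832, 846 and 1185 in wild type and 29831, 9755 and 33425 in knockout, a log2 difference of −4.50 (SE 0.417, adjusted p = 3.98e-06), and its partner S100a9 had 743, 720.1 and 1199 in wild type and 26110, 9615 and 29465 in knockout (−4.50). Camp, an antimicrobial peptide, had 233, 211 and 186 in wild type and 6062, 2296 and 6780.1 in knockout, and the lactoferrin gene Ltf had 773, 719 and 750.1 in wild type and 13560, 7146 and 13702 in knockout (−4.44 and −3.88). In all of these, S26 lay between wild type and the other knockout libraries but above every wild-type library. Defining neutrophil markers followed: Ly6g had 16.7, 5.27 and 19.5 in wild type and 321, 212 and 492 in knockout (−4.62) and the chemokine receptor gene Cxcr2 had 11.8, 7.53 and 18.9 in wild type and 233, 174 and 269.9 in knockout (−4.11). Of 22 tested neutrophil markers 18 were lower in wild type and 0 higher, with a median of −4.15 (−4.69 without S26, −3.25 without S25 and S27). By edgeR 20 were lower, and at an unadjusted p under 0.05 limma gave 20 lower and 1 higher. Counts of higher and lower markers were 1 and 20 without S26, 0 and 14 without S25 and S27. Summed over the list, neutrophil markers took 0.0841% to 0.101% of reads in wild type, 0.33% to 0.861% in knockout and 0.112% to 0.183% in normal microglia. No marker of the list was at 0 in any of these groups, and Retnlg was not used here. In S26 the 18 genes held 0.0801 to 0.713 of their mean in S25 and S27, with a median of 0.375. Further called genes were Slpi (−4.49), Mmp8 (−4.30), Ngp (−4.20), Lcn2 (−3.98), Pglyrp1 (−3.91), Anxa1 (−3.84), Wfdc21 (−4.44), Ifitm6 (−3.38) and Cd177 (−3.71). Cebpe (−4.06), a factor of granulocyte maturation, lost its call without S22, S25 or S27 (up to 0.0693). Prg2 had 9.83, 8.29 and 5.21 in wild type and 2303, 315 and 2330.5 in knockout (−7.12) and lost its call without any 1 library except S26 (up to 0.12).

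**Figure D4:**
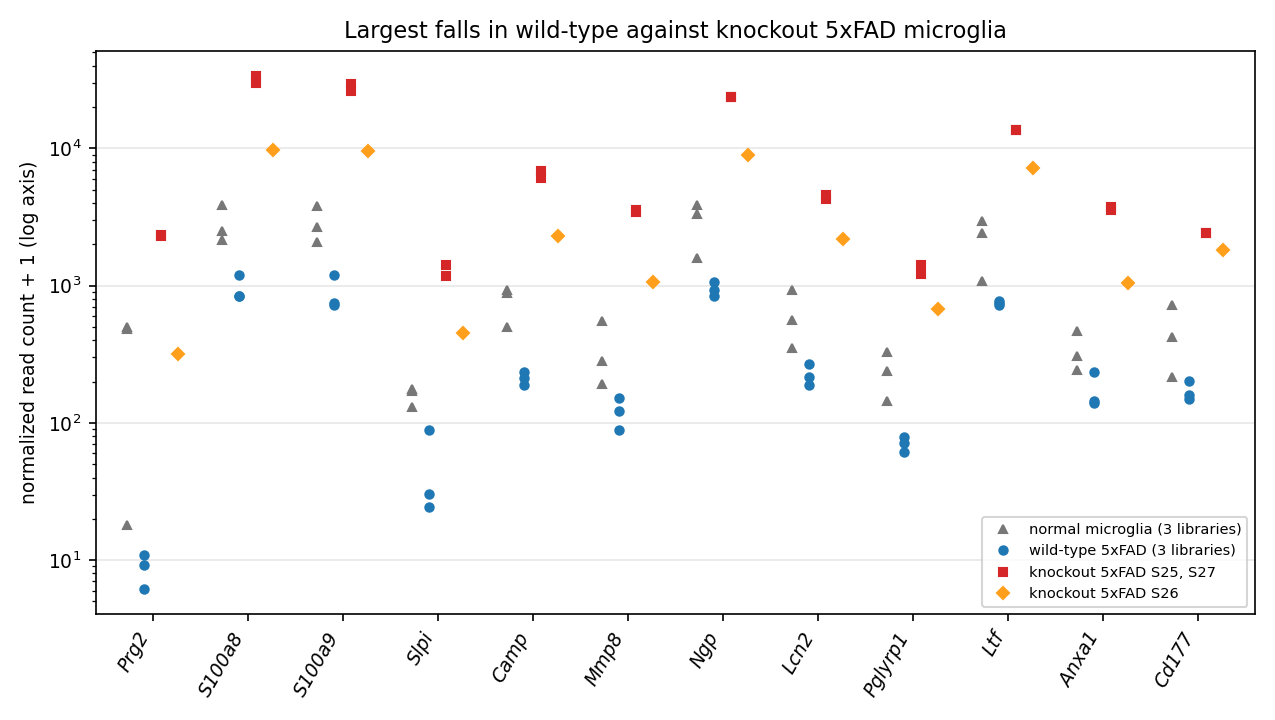
Normalized read counts plus 1 (log axis) in each library of normal, wild-type 5xFAD and knockout 5xFAD microglia, for the 12 called genes with the largest fall in wild type whose mean lies above the median gene. Genes were picked among those whose wild-type and knockout libraries did not overlap, so every knockout point lies above every wild-type point by that choice. S100a8 stands at 29831 and 33425 in S25 and S27, at 9755 in S26 and at 832 to 1185 in wild type.

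Of 23 monocyte markers 17 were lower and 1 higher in wild type, with a median of −1.66 (−1.88 without S26, −1.72 without S25 and S27). Counts of higher and lower ones were 2 and 19 without S26, 0 and 8 without S25 and S27. Ly6c2, a marker of classical monocytes, had 174, 203 and 138 in wild type and 2912, 1042 and 3032 in knockout (−3.62, adjusted p = 1.07e-05). Ccr2, the chemokine receptor of those cells, had 298, 305 and 335 in wild type and 1896, 735 and 1589 in knockout (−2.06, adjusted p = 0.000745), and did not pass without S25 and S27 (adjusted p = 0.14). Plac8 (−3.54), S100a6 (−3.23), Hp (−3.47) and S100a11 (−2.78) were called in all 4 fits. The list took 0.195% to 0.215% of reads in wild type and 0.276% to 0.521% in knockout. Of 16 markers of brain macrophages that come from blood, 6 were lower and 3 higher in wild type. In the same order as elsewhere, higher first, the counts were 6 and 7 without S26, 3 and 2 without S25 and S27. Clec12a had 181, 214 and 266 in wild type and 962, 455 and 1199.9 in knockout (−1.89) and Klra2 had 21.6, 34.6 and 28 in wild type and 118, 74.4 and 164 in knockout (−1.99), both called in all 4 fits. The higher genes of this list were Axl and Lpl, which are also DAM genes, and the receptor gene Tlr2 (0.64, adjusted p = 0.00432). Summed over the list, its genes took 0.235% to 0.236% of reads in wild type and 0.137% to 0.147% in knockout. Axl (mean 14208 in wild type and 3244 in knockout) and Lpl (5838 and 1156) weigh on this sum, while 6 members were lower. Of 10 genes of the Ms4a family 4 were lower and 0 higher, and the higher and lower counts were 0 and 9 without S26, 0 and 0 without S25 and S27. Ms4a7 had 372, 335 and 436 in wild type and 1275, 679.7 and 1309 in knockout (−1.46), with an adjusted p of 0.0981 without S25 and S27. Ms4a6b (−0.61), Ms4a4b (−2.22) and Ms4a6c (−1.0) lost their calls without 4 or 5 of the 6 libraries (up to 0.105, 0.096 and 0.136).

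Of 18 markers of border-associated macrophages 4 were lower and 0 higher (higher and lower, 1 and 4 without S26, 0 and 1 without S25 and S27). Pf4 had 454, 488 and 519 in wild type and 974, 983 and 1082 in knockout (−1.06, adjusted p = 0.0016), with a normal mean of 1244 and an adjusted p of 0.0584 without S25 and S27. F13a1 (−1.02) lost its call without any 1 library except S26 (up to 0.15). The list took 0.0809% to 0.0902% of reads in wild type, 0.104% to 0.149% in knockout and 0.116% to 0.183% in normal microglia. T and NK cell markers were lower in 4 of 15 tested cases and higher in 0 (higher and lower, 0 and 4 without S26, 0 and 2 without S25 and S27). Here S26 stood out as highest: Gzma, a granule protease, had 25.6, 21.8 and 56.0 in wild type and 81.2, 634 and 148 in knockout and the perforin gene Prf1 had 1.97, 6.78 and 26.7 in wild type and 27.8, 206 and 43.4 in knockout. Gzma (−2.61) lost its call without any 1 library except S25 (up to 0.164), and Prf1 (−2.90) without S22, S23 or S27 (up to 0.198). Nkg7 (−2.58) lost its call without S22 or S23 (up to 0.0803), and Klrk1 (−2.25) kept it without any 1 library but not without S25 and S27 (adjusted p = 0.0635). The list took 0.00379% to 0.0042% of reads in wild type and 0.00774% to 0.0157% in knockout.

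Not all of these marker lists moved with genotype in all 6 libraries. The mean log2 value of the neutrophil markers did, at 6.19 to 6.31 in wild type and 9.15 to 10.9 in knockout. That of the markers of brain macrophages from blood did not, at 9.61 to 9.68 in wild type and 9.60 to 9.88 in knockout. With the mean log2 value of the neutrophil markers as a covariate, 11 genes were called, all higher in wild type, and 10 of these were among the 320. They included Trem2 (3.47, adjusted p = 0.0002), Ank (3.31, 4.28e-06), Axl (2.71, 0.00183), Fam20c (3.11, 0.00278), Aplp2 (1.40, 0.0126), Sulf2 (2.62, 0.0369), St14 (2.43, 0.0369), Cst7 (3.83, 0.0402) and Il4i1 (2.20, 0.0445). No gene lower in wild type was called in that fit. The score is the mean of the neutrophil markers themselves, so that for these markers the loss of the call follows largely from its construction. Since the neutrophil score separates the genotypes in these 6 libraries, the score and the genotype cannot be told apart.

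Phagocyte oxidase and iron genes differed in small amounts. Of 7 tested genes of the NADPH oxidase, 1 was higher and 2 lower (1 and 4 without S26, 0 and 0 without S25 and S27). Cybb, its catalytic subunit, had 1988, 1969 and 2151 in wild type and 3945, 2341 and 3842 in knockout (−0.69) and Ncf4 1638, 1667 and 1649 in wild type and 2433, 2164 and 2497 in knockout (−0.52). The proton channel gene Hvcn1 was higher (0.43). Cybb and Hvcn1 lost their calls without any 1 library except S26 (up to 0.162 and 0.141), and Ncf4 without S22, S25 or S27 (up to 0.0693). Rac2 (−0.41, adjusted p = 0.0593) did not pass. Of 24 genes for iron handling and redox, 3 were higher and 1 lower (4 and 7 without S26, 0 and 0 without S25 and S27). Slc11a1, a metal transporter of phagosomes, had 13031, 12449 and 12960 in wild type and 6462, 9027 and 6474 in knockout (0.83, adjusted p = 0.00624), with S26 nearer to wild type (without S25 and S27, adjusted p = 0.353). Hmox1, heme oxygenase, had 1537, 1546 and 1616 in wild type and 1179, 1115 and 1075 in knockout (0.48) and lost its call without S22, S23, S24 or S27 (up to 0.0739). Slc11a2 (0.75) lost its call without any 1 library except S26 (up to 0.159) and Prdx5 (−0.61) without S27 (adjusted p = 0.0535).

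Other lists had few or no called genes with all libraries, yet differed between S26 and the other knockout libraries. Interferon response genes had 0 of 32 called by limma (1 higher and 4 lower at an unadjusted p under 0.05, 0 and 2 by edgeR). The counts were 1 and 14 without S26, 4 and 0 without S25 and S27, against 18% and 13.8% of all genes in the former fit and 1.24% and 0.783% in the latter. Their median was −0.09, with −0.71 without S26 and 0.74 without S25 and S27. Ifitm3, an antiviral membrane protein, had 2404, 2312 and 2513 in wild type and 4506, 2138 and 5328 in knockout (−0.63, adjusted p = 0.127), and Slfn2 had 2173, 2334 and 2609 in wild type and 4704, 2396 and 4649 in knockout (−0.66, adjusted p = 0.0551). In both, S25 and S27 were high and S26 was near wild type. Oas3 (−1.10, adjusted p = 0.0522) and Stat2 (0.57, adjusted p = 0.0682) did not pass. Of 39 cell cycle genes 1 was lower and 0 higher, with a median of −0.70 (−0.99 without S26, 0.08 without S25 and S27). The higher and lower counts were 0 and 23 without S26, 1 and 0 without S25 and S27. Hmgb2, a chromatin protein high in dividing cells, had 603, 609 and 678 in wild type and 2726, 635 and 2656 in knockout (−1.40) and lost its call without any 1 library except S26 (up to 0.18). Ccna2 had 157, 185 and 219 in wild type and 532, 188 and 430.3 in knockout (−0.92, adjusted p = 0.0794). Ccnd1 (−0.70, 0.0816) and Cenpa (−0.90, 0.0896) did not pass. Lars2, the mitochondrial leucyl-tRNA synthetase gene, took 1.69% and 2.09% of reads in S25 and S27, 0.824% in S26 and 0.459% to 0.616% in wild type. It was called lower in wild type (−1.27) and lost its call without any 1 library except S26 (up to 0.179). Ribosomal protein genes (median −0.27, with −0.52 without S26 and 0.22 without S25 and S27) and astrocyte markers (−0.18, −0.58 and 0.65) turned in the same way. None of the 46 ribosomal and 16 astrocyte genes was called by limma or edgeR, with 0 and 3 at an unadjusted p under 0.05. The higher and lower counts were 0 and 25 without S26, 0 and 0 without S25 and S27, for ribosomal genes, and 0 and 4 without S26, 0 and 0 without S25 and S27, for astrocyte markers. Read shares of mitochondrial genes and Lars2 moved with these lists, and their part was not tested.

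**Figure D5:**
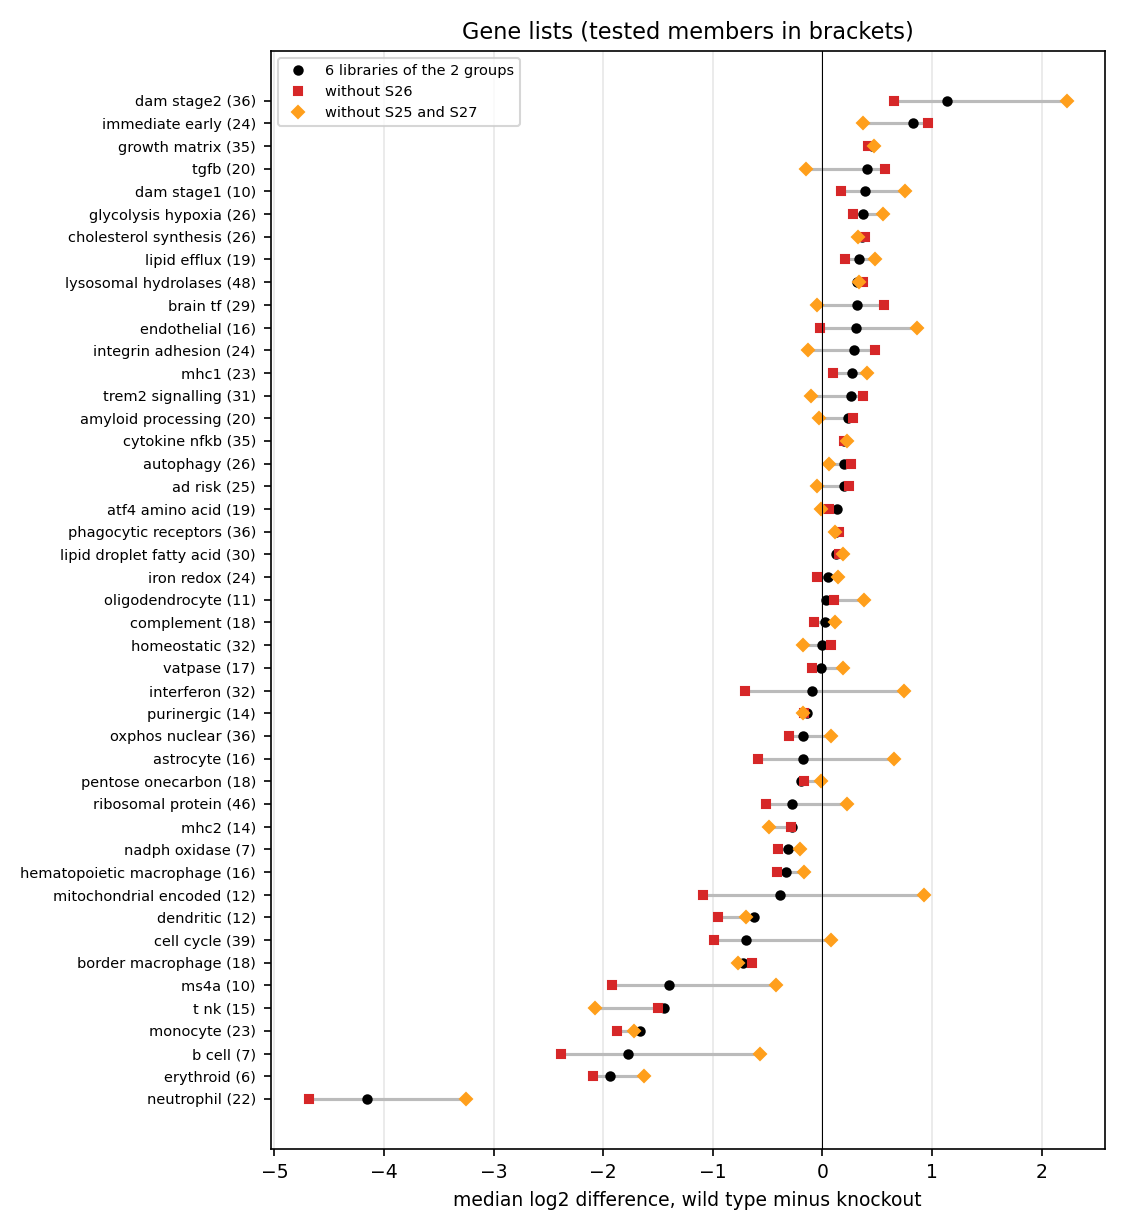
Median log2 difference, wild type minus knockout (horizontal axis), over the tested members of each gene list, with all libraries (black), without S26 (red) and without S25 and S27 (orange). The lysosomal list stays between 0.32 and 0.37 in the 3 fits, while the interferon list runs from −0.71 to 0.74 and DAM stage 2 from 0.66 to 2.23.

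The Trem2 difference in microglia was then tested against the Trem2 difference in transplanted cells, as an interaction in the same limma model. Both differences use separate libraries. Among the transplanted wild-type libraries, oligodendrocyte markers had mean log2 values of 9.76 in S30 and 9.77 in S31, against 4.64 in S28 and 4.89 in S29. Whether S30 and S31 came from separate animals is not stated, and they too enter the pooled spread. The interaction was called for 339 of 11500 genes (2.95%), 110 higher and 229 lower in microglia (0.957% and 1.99%). Of the 320 genes higher in wild-type microglia 58 had a called interaction, and of the 295 lower genes 159 had one. Both sets were picked by the microglial difference, which is also a term of the interaction. These counts therefore do not stand apart from that choice. Trem2 gave an interaction of −0.04 (adjusted p = 0.95), with differences of 3.29 in microglia and 3.33 in transplanted cells. Ank differed by 2.86 in microglia and −0.11 in transplanted cells, an interaction of 2.97 (adjusted p = 1.01e-08). Axl differed by 2.13 and 0.28 (interaction 1.85, adjusted p = 0.000119), and Csf1 by 2.40 and 0.60 (interaction 1.80, adjusted p = 0.0282). For these 3 genes the transplanted cells did not pass the test of their own difference. Their levels were unlike. Axl had means of 56392 in wild-type and 47756 in knockout transplanted cells, above wild-type microglia (14208). Ank (1982 and 2154) and Csf1 (427 and 293) lay below wild-type microglia (9903 and 5929). Itgax differed in microglia and in transplanted cells, by 2.82 and 1.33, and less in transplanted cells (interaction 1.49, adjusted p = 0.0151). Lpl differed by 2.5 and 3.25, and its interaction did not pass (−0.75, adjusted p = 0.474). The same held for Ch25h (2.35 and 1.76, interaction adjusted p = 0.58). S100a8 differed by −4.50 and 0.11 (interaction −4.61, adjusted p = 0.000119). The host of every transplant was a Trem2 knockout mouse, so that cell origin, treatment and host genotype cannot be told apart in this test.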

How the data were processed

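RNA of sorted brain myeloid cells was amplified with SMART-Seq v4 and sequenced on a NovaSeq, per the labels' protocols. The submitters' processing notes name bcl2fastq, STAR 2.5.2b, HTSeq, RSEM and DESeq2 3.17, and the mm10 and GRCm38.p6 builds. The deposited table holds normalized signal, that is, each library's gene-level read counts divided by 1 factor. Whole reads were recovered for 100% of values below 5000 in every library (tolerance 0.02), and edgeR on these reads called 579 genes. Each column was assigned to its group by its name, which does not show the single sample.

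Values were tested as log2(value + 1) with limma 3.58.1 (R 4.3.3, trended variance) on 5 group means over all 17 libraries, for the 11500 genes that reached 10 in at least 3 of the 6 libraries. A gene was called at a two-sided Benjamini-Hochberg adjusted p under 0.05 over these genes. All fold changes are on the log2(value + 1) scale, which understates the change of low genes, and all adjusted p-values come from limma unless edgeR 4.0.16 or DESeq2 1.42.0 is named. The model was also run on simulated counts with independent libraries and the same dispersion in every group. That run cannot show how the model behaves with the wider knockout spread and the close library pairs of these data. Of 11500 genes, 11478 symbols matched 1 GENCODE gene, used for positions. Near-identical paralogs such as the H2 and Ms4a genes may share reads, since the sources used here do not give the treatment of shared reads.

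The genes named were Trem2, Tyrobp, the 12 largest rises and 12 largest falls among called genes without overlap and above the median level, and up to 4 members with the smallest p from each list. Others were chosen after their values were seen, for their position, for being called in all 4 fits or as known markers. The groups and gene lists were chosen with earlier results of these data known. Results for some genes that these rules name are not reported here. Alternatives were other pseudocounts, filters, scalings and tests, the 6 libraries alone, libraries left out or averaged, and a neutrophil covariate.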

Additional observations from a re-analysis of the deposited data

Results flagged for a closer look

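For 62 of the 168 genes named, the Trem2 difference in microglia differed from that in transplanted cells by the interaction test of limma (adjusted p under 0.05 over all tested genes). Over all tested genes 2.95% had a called interaction. Many of the named genes were picked by their microglial difference, which is a term of the interaction. The count of 62 is therefore not independent of that choice. Each value below is the log2 difference in microglia minus that in transplanted cells.

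Among DAM and lipid genes the microglial difference was the higher one for Ank (2.97), Itgax (1.49), Csf1 (1.80), Axl (1.85), Sulf2 (1.73), St8sia6 (2.07), Bhlhe40 (1.90), Aplp2 (0.82) and Soat1 (0.60). Lgals3 gave −2.51: its difference was 1.43 in transplanted cells (adjusted p = 0.0214) and −1.08 in microglia (adjusted p = 0.109). Pparg gave −3.07 and Pfkp −1.35. Other genes with a higher microglial difference were St8sia6 (2.07), Il4i1 (1.31), St14 (1.24), Gnptab (1.17), Siglecf (2.53), Tnfaip3 (1.16), Myc (1.14), H2-Ob (0.64) and Tlr2 (0.69).

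Neutrophil genes had the lower difference in microglia, with S100a8 at −4.61, S100a9 at −4.62, Slpi at −4.87, Camp at −4.63, Mmp8 at −4.34, Ngp at −4.47, Lcn2 at −4.50, Pglyrp1 at −4.13, Ltf at −4.29, Anxa1 at −3.78, Cd177 at −4.14, Mmp9 at −4.13, Wfdc21 at −4.83, Ly6g at −4.56, Cxcr2 at −4.25 and Ifitm6 at −3.87. Monocyte and macrophage genes followed, with Ly6c2 at −3.63, Plac8 at −3.66, S100a6 at −2.87, Hp at −3.89, S100a11 at −2.97, Clec12a at −1.79, Klra2 at −2.02, Pf4 at −1.55, F13a1 at −1.68, Ms4a7 at −1.78, Lgals1 at −2.62 and Itgb7 at −1.87. The Trem2 neighbours Trem1 (−4.16), Trem3 (−3.89), 9830107B12Rik (−4.42) and A530064D06Rik (−2.23) and the receptor gene Pilrb1 (−3.34) were lower as well.

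Further lower values were those of H2-Eb1 (−1.33), H2-Aa (−1.26), Cfp (−2.78), C3 (−2.74), Ifitm3 (−1.30), Clu (−1.87), Ccnd1 (−1.14), Prdx5 (−0.78) and Ncf4 (−0.71). In transplanted cells the difference of S100a8 was 0.11 (adjusted p = 0.865), that of Ly6g −0.06 (0.939), that of H2-Aa 0.02 (0.938) and that of Clu 1.26 (0.00589).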

How the results depend on the processing

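The count of 615 called genes (320 higher and 295 lower in wild type) depended most on the knockout libraries. Leaving out 1 library at a time gave 297 to 3663 called genes, 129 to 2071 higher and 160 to 1592 lower. The upper ends came without S26, and without S22, S23, S24, S25 or S27 the totals were 306, 315, 337, 297 and 306. The 6 libraries alone gave 273 (115 higher and 158 lower), and leaving out S25 and S27 gave 233 (143 and 90). Averaging the closest libraries (S22 with S23, S25 with S27) gave 182 (68 and 114), the neutrophil covariate 11 (11 and 0), and DESeq2 984 (480 and 504). Other pseudocounts, filters and scalings and edgeR gave 578 to 657. Upper-quartile rescaling moved the split to 246 higher and 332 lower, and edgeR to 258 and 321. The cause of these shifts was not tested, except that fits with fewer libraries have fewer degrees of freedom. The interaction count of 339 was 394 with edgeR.

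Of the 127 called genes named, 125 kept their call with pseudocount 0.5, 127 with pseudocount 5, 119 without a filter, 124 with edgeR and 126 with TMM rescaling. Signs turned for the following genes, and the cause was not tested. Without S25 and S27 the values were Rhob −0.20 (0.60 with all libraries), Ifitm3 0.17, Csf1r −0.17, Sall1 −0.62, Tmem119 −0.62, Cx3cr1 −0.044 and Treml1 0.19. With the neutrophil covariate they were Prg2 5.48, Rhob −0.23, Oas3 0.37, Ifitm3 0.43, Cfp 0.040, C3 0.19, Ide 0.18, Clu 0.13, Ccna2 0.32, Slc11a2 −0.081, F13a1 0.24, Lgals3 0.0045, Tmem119 −0.14 and Cebpe 0.82. Tmem119 was −0.066 with edgeR, −0.057 with DESeq2, −0.039 with upper-quartile rescaling and −0.16 with the closest libraries averaged. Without 1 library at a time, Tmem119 ranged from −0.16 to 0.34, Cd63 from −0.15 to 0.49, Hif1a from −0.034 to 0.69 and Cd9 (0.25 with all libraries) from −0.074 to 0.41.

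No paired analysis was possible because the columns carry no replicate number outside the normal microglia. At the depth of these libraries the median standard error of a log2 difference was 0.228. The smallest called difference was 0.36, which is not a limit of detection for other genes. Larger differences did not pass where the spread was wide, such as that of Gpnmb (2.47). A gene without a call is therefore not shown to be unchanged.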

Other observations

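Knockout microglia were set beside normal microglia as a description, with no test. Cst7 had a normal mean of 333, below S26 at 1576, while Axl, Gusb and Glb1 had normal means of 3413, 9816 and 2897, all within or next to the knockout range. Some cell type markers were not used here: Trac, Trbc1 and Trbc2 of T cells, and Pax5, Ighm, Ighd and Igkc of B cells. Among the lists without a called gene, erythroid markers took 0.00245% to 0.00281% of reads in wild type and 0.00968% to 0.0141% in knockout. B cell markers took 0.011% to 0.0114% of reads in wild type and 0.0101% to 0.0227% in knockout, the lowest in S26. In neither list was a gene called by limma or edgeR with all libraries (0 and 3 at an unadjusted p under 0.05), although limma on the 6 libraries alone called 4 erythroid genes lower, and 4 of the 6 tested erythroid genes had knockout libraries wholly above wild type, against 10.9% of all tested genes.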
